A study of Homo sapiens with 3 samples.

Results

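The RNAs described here are the 184 well-counted long noncoding RNAs (lncRNAs) of HK1 cells. They were chosen by their counts: a gene had to carry the lncRNA biotype, lie on chromosomes 1 to 22 except 7, and have at least 200 counts in at least 1 of 3 libraries. This left 184 of 16568 lncRNAs on those chromosomes, out of 17734 lncRNAs and 61550 genes in the table. On chromosome 7 another 7 lncRNAs reached 200 counts, and 5 more did so on the remaining chromosomes. They are not described here. Since the counts chose the members, the levels are a description. Of the 184 members, 36 reached 200 counts only in a FLI1 KO library, 21 only in WT and 127 in both groups, and a member that entered through 1 group alone was likely to differ from the other group by its selection.

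HK1 is an established nasopharyngeal carcinoma line, and poly-A RNA was sequenced from HK1 cells after incubation with activated CD8+ T cells, which all 3 libraries share. The FLI1 KO group held 2 libraries, labelled sgFLI1-1 and sgFLI1-2 after the guide RNA used against FLI1, an ETS-family transcription factor, and the WT group held 1 library. Total gene counts were 23904587 and 22409203 in the FLI1 KO libraries and 22172158 in WT. Neither the labels nor the methods state if KO cells were clones or pools, if WT cells carried a control guide, or if each library had its own culture. The p-values therefore cover no spread beyond these libraries. Within a group only the 2 FLI1 KO libraries, of different guides, could differ, and most of the spread used for a gene was borrowed from other genes. Values of the FLI1 KO group are given in the order sgFLI1-1, sgFLI1-2.

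FLI1 itself had 11 and 109 counts in the FLI1 KO libraries, against 125 counts in WT, which is 8.16% and 86.3% of the WT level in CPM (counts scaled to library size). As a group the FLI1 KO libraries had a log2 fold change of -1.09 ± 0.84 (SE) for FLI1 (adjusted p = 0.515 by edgeR's quasi-likelihood test), which joins 2 unlike libraries. The library labelled sgFLI1-2 alone lay near WT in its FLI1 RNA, and 1 library against 1 allows no test. A Cas9 cut can leave the RNA level of its target in place, so this count is no check of that label, and every direction given for FLI1 KO goes by the labels. The epithelial markers of HK1 summed to 4506 and 4894 CPM in the FLI1 KO libraries and 4440 CPM in WT. The 5 genes for CD3 and CD8 chains had 0 counts in every library, 20 of 32 T cell markers were at 0 throughout, and the whole T cell list summed to 5.31 and 7.50 CPM in the FLI1 KO libraries against 19.3 CPM in WT.

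Long noncoding RNAs are transcripts without a known protein product. Some act in the nucleus, as NEAT1 does by building paraspeckles, some are carried to the cytoplasm, some are processed into microRNAs or small nucleolar RNAs (snoRNAs), and for many the act of transcription near another gene is the only known property. Many lie antisense to a protein-coding gene or start beside its promoter, and in such places reads can be assigned to either gene when strand is not used. The labels and the methods of the study were read for this. Whether the counting used strand is not stated in those sources, so the overlap with protein-coding genes is given for the members called and for several others.

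By gene body, 116 of the 184 members overlapped a protein-coding gene by at least 1 base. Of these, 72 overlapped only on the opposite strand, 26 only on the same strand and 18 on both. A further 9 members overlapped none but started within 1000 bases of a protein-coding gene on the other strand, and 59 did neither. At the level of exons in GENCODE v44, 100 members overlapped a protein-coding exon, 38 on the same strand and 76 on the opposite strand. Sequence was shared as well. Over all members a median of 16.4% of the 31-base words in a member's transcripts also occurred, on either strand, in transcripts of other genes. This share was at least 50% in 50 members and at least 90% in 22, and under 10% in 69. The members had a median of 4460 exonic bases (range 318 to 122609), and 66 had no symbol in the table and are named by GENCODE v44 or by Ensembl identifier. They lay on 21 chromosomes.

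Together the members took 0.846% and 0.860% of all counts in the FLI1 KO libraries and 0.715% in WT. H19, an imprinted RNA expressed in embryonic tissues and carcinomas (chromosome 11, 1995171 to 2001470 in GRCh38 as for all gene coordinates here, no protein-coding overlap), held the most counts in every library. It had 50270 and 52609 counts in the FLI1 KO libraries against 26302 in WT, or 24.9% and 27.3% of the members' counts against 16.6%. Its fold change of 1.88 (log2 0.91 ± 0.14 SE, adjusted p = 0.00264 by edgeR) passed the adjusted p but lay under the 2-fold threshold. Without H19 the members' sum was 6359 and 6254 CPM in the FLI1 KO libraries and 5967 CPM in WT, so H19 made up most of the difference between the groups in the members' total.

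Levels per length ranged widely. The median member had 7.62 FPKM (a level scaled to transcript length and library size), against 13.2 FPKM for the 9473 protein-coding genes that reached 200 counts. Below 5 FPKM lay 63 members, 80 had 5 to 20 FPKM and 41 had 20 FPKM or more. H19 had 1215 and 1190 FPKM in the FLI1 KO libraries and 569 FPKM in WT. TUBA1B-AS1 had 1049 and 612 FPKM in the FLI1 KO libraries and 790 FPKM in WT, where it stood above H19. The next highest by mean FPKM were SNHG29, UCA1, GAS5 and ENSG00000281181. TUBA1B-AS1 lies antisense to the tubulin genes TUBA1B and TUBA1A and shared 48.6% of its 31-base words with other genes. How many of its reads came from tubulin RNA was not tested. It had 24246 and 13226 counts in the FLI1 KO libraries against 17115 in WT, and WT lay between the FLI1 KO libraries.

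The comparison of FLI1 KO with WT asks which of these RNAs differed in tumour cells edited at FLI1. Calls required an adjusted p below 0.05 (edgeR's quasi-likelihood test, adjusted by Benjamini and Hochberg over all 15483 genes tested) and a fold change of at least 2. Of the 184 members, 19 were called higher in FLI1 KO (10.3%) and 14 lower (7.61%). Over all genes tested 1.83% were called higher and 2.95% lower, and over the 9805 genes that reached 200 counts in a library, the same threshold as for the members, 2.23% and 3.6%. Among the 127 members with 200 counts in both groups, 7 were called higher and 5 lower. The share of all genes under that both-group rule was not computed, so these counts have no matching background and no excess is read from them. Of the calls, 12 of the 19 higher members had reached 200 counts only in a FLI1 KO library and 9 of the 14 lower members only in WT, so most calls fell on members whose choice used the same difference. The 9 lower ones were MMP25-AS1, HCP5, C1RL-AS1, PSMB8-AS1, BCAN-AS2, LINC00511, MYOSLID, ENSG00000287839 and ENSG00000261067. Among the 12 higher ones were LINC01322, LINC02009, IGFL2-AS1, MIR137HG, LINC00472, ENSG00000286966, ENSG00000227619 and ENSG00000258232. In bulk RNA fewer cells of a type and less RNA per cell cannot be told apart. The median log2 fold change was 0.07 over the members and 0.00 over the genes tested. In 83 members (45.1%) both FLI1 KO libraries lay above WT and in 70 (38%) both lay below, close to the 42.3% and 39.4% of all genes with 200 counts. By size alone, 17 members (9.24%) were at least 2-fold above WT by CPM in both FLI1 KO libraries and 14 (7.61%) at least 2-fold below, against 1.9% and 3.29% of all genes with 200 counts.

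The calls depended on the filter on low counts. Fitted over all genes with no filter, edgeR called 2 members higher and 0 lower, although 37 and 24 had an unadjusted p under 0.05, and ENSG00000286966 was among those that kept their call. DESeq2 called 19 higher and 11 lower, of which 17 and 11 were also called by edgeR. Without the library labelled sgFLI1-2, 26 members were at least 2-fold above WT by CPM and 25 at least 2-fold below, with no test left, and without the library labelled sgFLI1-1 these were 23 and 19.

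**Figure D1:**
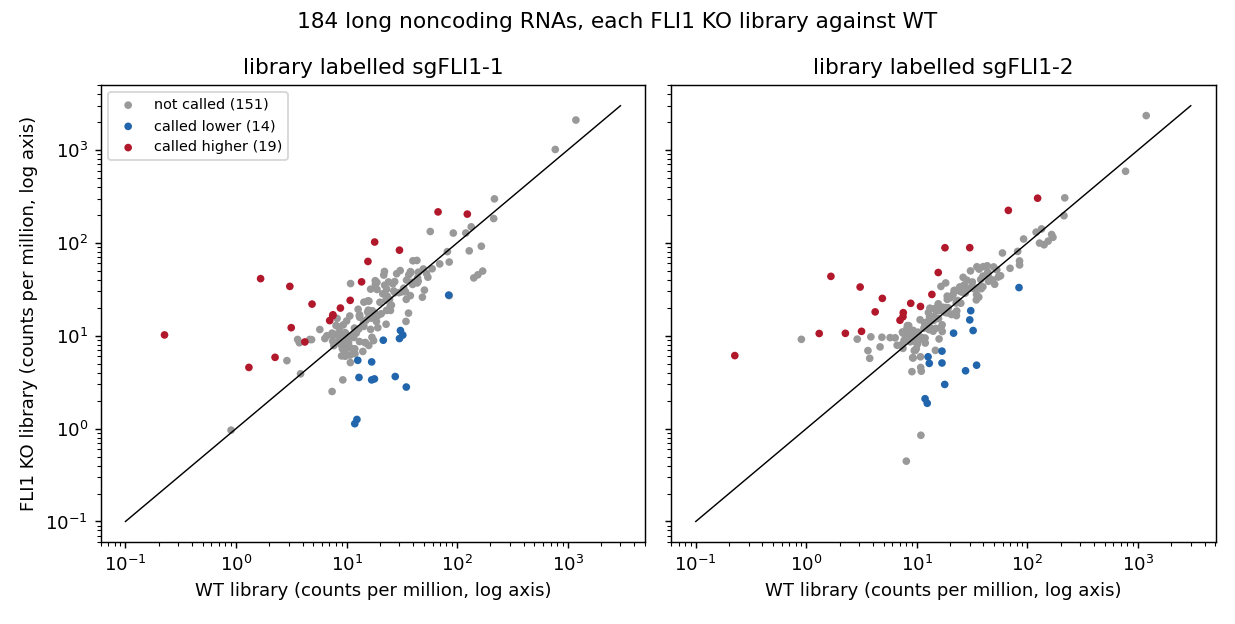
Each point is 1 of the 184 lncRNAs, with its level in WT on the horizontal axis and in a FLI1 KO library on the vertical axis, both in CPM on log axes; the line marks equal levels. The 19 members called higher (red) and 14 called lower (blue) lie on their own side of the line in each panel, and most of the 151 others lie close to it.

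Members lower in FLI1 KO included RNAs from antigen presentation loci. HCP5, an RNA of the class I major histocompatibility (MHC) region (chromosome 6, 31463170 to 31478936, no protein-coding overlap), had 30 and 42 counts in the FLI1 KO libraries against 275 in WT (log2 fold change -2.98 ± 0.38 SE, adjusted p = 0.000816). PSMB8-AS1 (chromosome 6, 32844078 to 32846500) had 82 and 67 counts against 396 (log2 fold change -2.47 ± 0.30 SE, adjusted p = 0.000702). For both RNAs the FLI1 KO libraries lay close together and far under WT. PSMB8-AS1 overlaps PSMB9 on its own strand and TAP1 and PSMB8 on the other, with 59.8% of its exonic bases in their exons. TAP1, a subunit of the peptide transporter of the endoplasmic reticulum, had 3225 and 3347 counts in the FLI1 KO libraries against 25459 in WT (log2 fold change -3.01 ± 0.15 SE, adjusted p = 1.85e-06). PSMB9 and PSMB8, subunits of the immunoproteasome, had log2 fold changes of -3.51 and -2.20. The part of reads shared with these genes in the change of PSMB8-AS1 was not tested. For HCP5 no overlap of this kind exists, and only 6.20% of its 31-base words were shared.

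MMP25-AS1 showed the largest decrease of the called members. It had 67 and 108 counts in the FLI1 KO libraries against 769 in WT (chromosome 16, 3037400 to 3059370, log2 fold change -3.19 ± 0.30 SE, adjusted p = 0.000101), a 9.10-fold lower level. It lies antisense to MMP25, a membrane-type metalloproteinase, which had 17 and 8 counts against 102 (log2 fold change -3.08 ± 0.55 SE, adjusted p = 0.00689). IL32, a cytokine gene 5.93 kb away, had 569 and 503 counts against 4191. C1RL-AS1 followed with 27 and 47 counts in the FLI1 KO libraries against 263 in WT (chromosome 12, log2 fold change -2.88 ± 0.41 SE, adjusted p = 0.00177). It lies antisense to C1RL and RBP5, and C1RL, a complement C1r-like protease, had 171 and 124 counts against 287 and missed the threshold (adjusted p = 0.0839). The complement protease genes C1R and C1S within 100000 bases had log2 fold changes of -3.10 and -3.00.

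The promoter windows of the called members were searched for 3 motifs, on both strands: TTCNNNGAA, the gamma-activated site (GAS) bound by STAT dimers; GAAANNGAA, a core of the interferon-stimulated response element (ISRE); and CCGGAAGT, a high-affinity ETS site. Windows were RefSeq promoters (GRCh38.p14) of 300 bases, 250 before and 50 after the start. The GAS letters were in 7.66% of all 35116 promoters listed, the ISRE core in 8.11% and the ETS letters in 4.14%. Among members, 97 had a window, including 7 called lower and 6 called higher. The GAS letters occurred in 2 of the 7 lower members and 1 of the 6 higher ones, the ISRE core in 2 of 7 and 0 of 6, and the ETS letters in 0 of 7 and 0 of 6. Among the 84 members with a window that were not called, 9.52% held the GAS letters, 7.14% the ISRE core and 5.95% the ETS letters. The 3 windows with a match are shown, each in lower case with matched letters in capitals, 5′ to 3′ on the gene's strand. PSMB8-AS1 (chr6:32843836-32844135, plus strand) holds an ISRE core starting at position -44 and a GAS at 19, MMP25-AS1 (chr16:3059321-3059620, minus strand) a GAS at -169 whose last letters overlap an ISRE core at -163, and DANCR (chr4:52712144-52712443, plus strand), a member called higher, a GAS at -219.
PSMB8-AS1: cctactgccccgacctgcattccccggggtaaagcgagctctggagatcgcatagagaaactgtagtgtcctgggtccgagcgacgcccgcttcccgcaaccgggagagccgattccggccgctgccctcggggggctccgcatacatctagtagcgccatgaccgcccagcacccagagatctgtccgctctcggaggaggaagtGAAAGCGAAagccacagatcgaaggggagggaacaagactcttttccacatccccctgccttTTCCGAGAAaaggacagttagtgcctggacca
MMP25-AS1: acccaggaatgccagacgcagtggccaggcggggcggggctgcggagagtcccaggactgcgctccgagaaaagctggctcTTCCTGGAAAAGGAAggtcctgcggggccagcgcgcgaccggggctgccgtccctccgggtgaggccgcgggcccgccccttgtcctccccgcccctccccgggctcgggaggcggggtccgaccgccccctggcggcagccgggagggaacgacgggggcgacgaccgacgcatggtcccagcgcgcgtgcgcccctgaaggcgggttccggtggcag
DANCR: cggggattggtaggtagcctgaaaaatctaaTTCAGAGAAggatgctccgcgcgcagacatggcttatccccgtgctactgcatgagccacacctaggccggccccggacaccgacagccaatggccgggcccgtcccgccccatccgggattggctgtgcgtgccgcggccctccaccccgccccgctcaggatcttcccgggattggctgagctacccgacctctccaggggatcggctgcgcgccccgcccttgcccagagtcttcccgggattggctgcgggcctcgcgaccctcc
A match is a match of letters only, and nothing was measured at these windows.

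Further members lower in FLI1 KO lay on chromosomes 1 and 5. ENSG00000287839 on chromosome 1 (155626757 to 155637604), with no protein-coding overlap, had 87 and 94 counts in the FLI1 KO libraries against 611 in WT (log2 fold change -2.81 ± 0.26 SE, adjusted p = 9.57e-05), and 73.7% of its 31-base words occurred in transcripts of other genes. ENSG00000287263 on chromosome 5, free of overlap and with 6.26% shared words, had 243 and 255 counts against 715 (log2 fold change -1.58, adjusted p = 0.00111). Neighbouring members fell together on chromosome 1, where BCAN-AS2 and ENSG00000272405, 1620 bases apart on the same strand, both lie antisense to BCAN, the gene of the brain proteoglycan brevican. BCAN-AS2 had 80 and 114 counts in the FLI1 KO libraries against 374 in WT, and ENSG00000272405 had 655 and 740 against 1860. BCAN had 15 and 28 counts against 61 and was not called (adjusted p = 0.161).

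LINC00511, an intergenic RNA studied for its part in carcinoma growth, had 125 and 153 counts in the FLI1 KO libraries against 374 in WT (chromosome 17, 72290091 to 72640472, log2 fold change -1.48 ± 0.29 SE, adjusted p = 0.012). MYOSLID, described in smooth muscle cells and antisense to the transcription factor gene KLF7, had 130 and 133 counts against 280 (log2 fold change -1.15 ± 0.30 SE, adjusted p = 0.0461), and DESeq2 did not call it (adjusted p = 0.164). KLF7 itself had 247 and 251 counts against 302 and was not called. ENSG00000261067 went against the direction of SPNS1, which it overlaps: it had 85 and 113 counts in the FLI1 KO libraries against 287 in WT, while SPNS1, a lysosomal transporter gene on the same strand, had 1947 and 1580 counts against 1190 (adjusted p = 0.155). Exons of SPNS1 and of LAT, a T cell adaptor gene with 9 and 11 counts in the FLI1 KO libraries and 20 in WT, cover 79.6% of its exonic bases. ENSG00000288851 starts 324 bases from C6orf62 by the deposited coordinates, but its 318 exonic bases lie wholly in opposite-strand exons of that gene in GENCODE v44 and 100% of its 31-base words were shared. It had 223 and 332 counts against 667, while C6orf62 had 9770 and 7369 against 8362. The remaining 2 called members were SLC9A3-AS1, antisense to SLC9A3, and ENSG00000261553, on the same strand as UCHL3 and LMO7 and with 44.6% of its exonic bases in protein-coding exons. Their log2 fold changes were -1.13 and -1.04, and DESeq2 called neither (adjusted p = 0.054 and 0.0789).

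**Figure D2:**
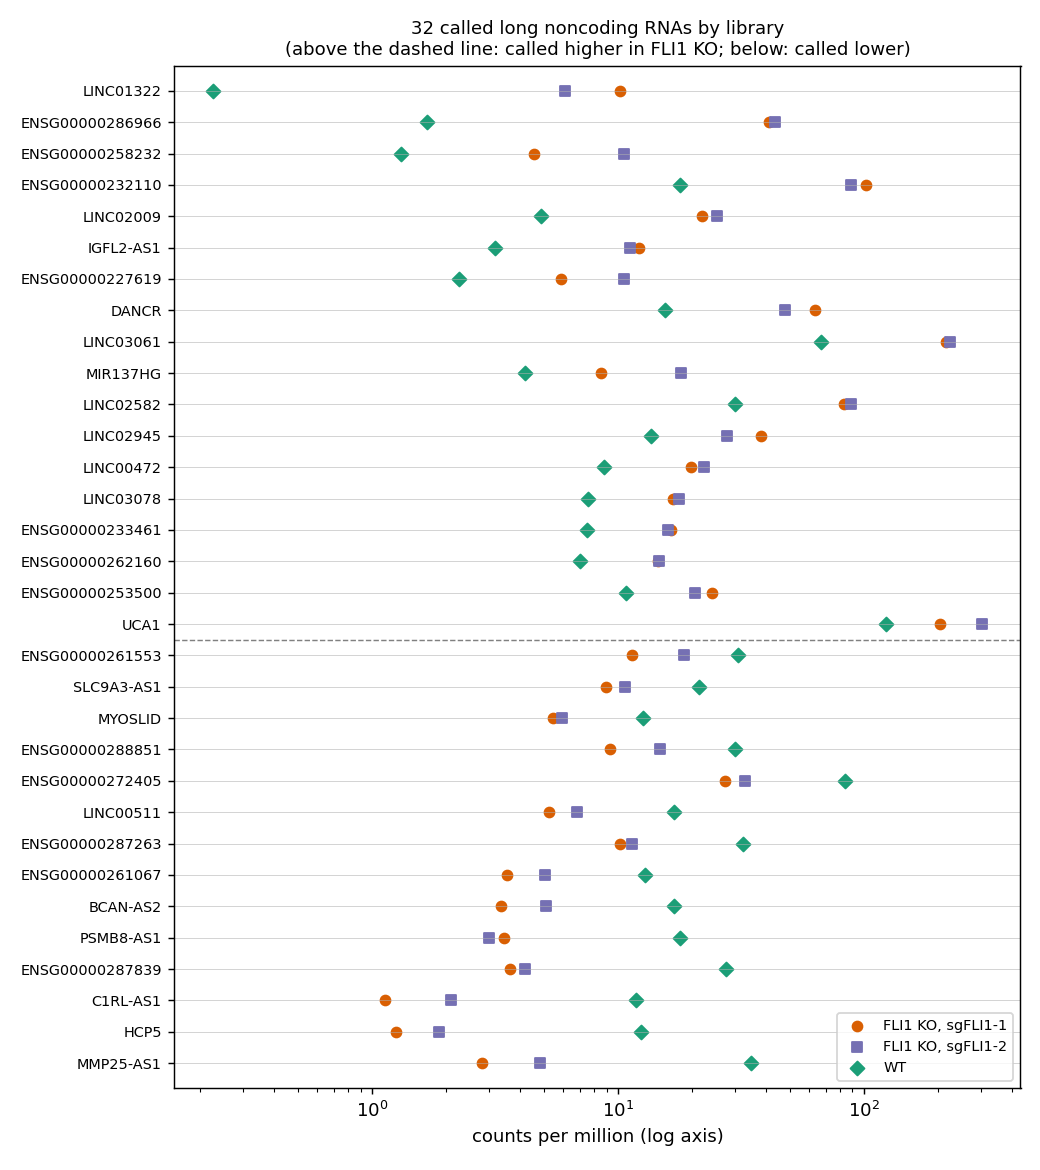
Level of 32 of the 33 called lncRNAs in CPM (log axis), with 1 point per library (circle and square, the FLI1 KO libraries sgFLI1-1 and sgFLI1-2; diamond, WT). None of the 32 has WT between the FLI1 KO libraries, and LINC01322 and ENSG00000286966 show the widest gaps.

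Members higher in FLI1 KO were led by intergenic and antisense RNAs with few counts in WT. LINC01322 (chromosome 3, 165206929 to 165846519) had 244 and 137 counts in the FLI1 KO libraries against 5 in WT (log2 fold change 5.15 ± 0.60 SE, adjusted p = 0.00051). ENSG00000286966 (chromosome 1, 183613537 to 183619335, no protein-coding overlap) had 985 and 977 counts against 37, a 25.4-fold higher level (log2 fold change 4.66 ± 0.27 SE, adjusted p = 3.31e-06), and it lies 1511 bases from ARPC5, a subunit gene of the actin-nucleating Arp2/3 complex that was not called. For ENSG00000286966 the FLI1 KO libraries were nearly alike, though 70.4% of its 31-base words occur in transcripts of other genes. LINC01322 lies antisense to BCHE, the butyrylcholinesterase gene, which had 0 and 2 counts in the FLI1 KO libraries and 0 in WT.

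LINC02009, an intergenic RNA on chromosome 3 (46416524 to 46423591) with no protein-coding overlap and 3.32% of its 31-base words shared, had 524 and 566 counts in the FLI1 KO libraries against 108 in WT (log2 fold change 2.28 ± 0.25 SE, adjusted p = 0.000368). The FLI1 KO libraries lay close together and well above WT.

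ENSG00000232110 (chromosome 10, 89283636 to 89292125) had 138 and 105 FPKM in the FLI1 KO libraries and 19.6 FPKM in WT, from 2442 and 1987 counts against 398 (log2 fold change 2.41 ± 0.21 SE, adjusted p = 6.48e-05). It overlaps IFIT2, an interferon-induced antiviral gene, on the same strand and LIPA, the lysosomal acid lipase gene, on the other. IFIT2 had 1775 and 1694 counts in the FLI1 KO libraries against 687 in WT (log2 fold change 1.28, adjusted p = 0.00192), LIPA was not called, and IFIT3, 35.2 kb away, had 1407 and 1439 counts against 3561. The member thus stood higher beside an IFIT gene that rose and near another that fell, and reads shared with IFIT2 were not tested.

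LINC03061 (chromosome 13, 5155 and 5018 counts in the FLI1 KO libraries against 1490 in WT, log2 fold change 1.71 ± 0.18 SE) and LINC02582 (chromosome 18, 1996 and 1990 against 667, log2 fold change 1.52 ± 0.19 SE) were well counted in every library and overlap no protein-coding gene. IGFL2-AS1, on chromosome 19, had 292 and 250 counts in the FLI1 KO libraries against 70 in WT (log2 fold change 1.89 ± 0.34 SE, adjusted p = 0.00655). ENSG00000227619, on chromosome 9, had 140 and 238 against 50 (adjusted p = 0.0328). UCA1, an RNA first described in bladder carcinoma, had 4880 and 6790 counts in the FLI1 KO libraries against 2740 in WT (chromosome 19, log2 fold change 1.04 ± 0.23 SE, adjusted p = 0.0226). The library labelled sgFLI1-1 alone was under 2-fold for UCA1, at 0.72 on the log2 CPM scale. ENSG00000258232, antisense to TUBA1C, had 109 and 237 counts against 29, a change of wide error (log2 fold change 2.52 ± 0.56 SE, adjusted p = 0.0211), with 93.5% of its words shared with other genes. The other members called higher were LINC00472, LINC02945, LINC03078, ENSG00000233461, ENSG00000262160 and ENSG00000253500, with log2 fold changes of 1.06 to 1.27, beside DANCR and MIR137HG. DESeq2 did not call ENSG00000233461, antisense to TSNAX (adjusted p = 0.0585), or ENSG00000262160, which overlaps ESRP2 and NFATC3 and shared 100% of its words (adjusted p = 0.104). ENSG00000253500 lies antisense to CNBD1.

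Of the 33 called members, 15 overlapped no protein-coding gene body by the deposited coordinates, 10 higher and 5 lower. Of these, ENSG00000288851 lay wholly in protein-coding exons of GENCODE v44 and LINC00472 in part (3.72% of its exonic bases). Of the 33, 27 shared under 50% of their 31-base words with other genes, 16 higher and 11 lower. The protein-coding genes within 5 Mb of a called member had regional median changes between -0.43 and 0.41 on the log2 scale in either FLI1 KO library (10 to 134 genes each).

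Genes that host microRNAs were found in both directions. In GENCODE v44, 21 members hold a microRNA within their body on the same strand. Of these, 3 were called higher, MIR137HG, LINC00472 and DANCR, and 1 lower, MYOSLID. Over all members 10.3% and 7.61% were called, and over all genes with 200 counts 2.23% and 3.6%. With so few calls, no result about microRNA hosts as a set is drawn. MIR137HG, the host of miR-137, had 205 and 405 counts in the FLI1 KO libraries against 93 in WT (log2 fold change 1.66 ± 0.43 SE, adjusted p = 0.0454). It overlaps DPYD, the gene of the pyrimidine-degrading dihydropyrimidine dehydrogenase, on the same strand, and DPYD had 1421 and 1146 counts against 2074, the opposite direction. LINC00472 had 475 and 501 counts against 195 (log2 fold change 1.26 ± 0.24 SE, adjusted p = 0.00883). Its body holds the genes of miR-30a and miR-30c, whose 5p arms share the seed GUAAACA, the bases 2 to 8 that pair with targets. Mature sequences of these hosts and of H19 are shown from RefSeq (GRCh38.p14), with the seed in capitals, to show what each host encodes. The libraries measured the host RNA and not the mature microRNA. The sequences lie at chr6:71403595-71403616 (miR-30a-5p) and chr6:71377003-71377025 (miR-30c-5p), and at chr1:98046091-98046113 (miR-137-3p), all on the minus strand.
hsa-miR-30a-5p: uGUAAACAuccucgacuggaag
hsa-miR-30c-5p: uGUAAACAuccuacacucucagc
hsa-miR-137-3p: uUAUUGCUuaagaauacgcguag
hsa-miR-4449 (DANCR): cGUCCCGGggcugcgcgaggca
hsa-miR-7845-5p (MYOSLID): aAGGGACAgggagggucgugg
hsa-miR-675-5p (H19): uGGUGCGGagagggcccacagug
Apart from miR-30a and miR-30c, no seed among these 6 was shared. Other well-counted hosts were not called: MIR4435-2HG had 1487 and 1432 counts in the FLI1 KO libraries against 1880 in WT, MIR22HG had 418 and 400 against 399, and DLEU2, the host of miR-15a and miR-16-1, had 1148 and 720 against 847. All 3 overlap protein-coding genes on the opposite strand.

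snoRNA hosts carry snoRNAs in their introns, which guide modification of ribosomal RNA, while the spliced host is often a short-lived RNA whose level depends on translation. By position in the GENCODE v44 annotation used here, 20 members host at least 1 snoRNA, 131 in all, of which SNHG14 holds 84. Of the 20, 1 (DANCR) was called higher and 0 lower, where 2.23% and 3.6% of all genes with 200 counts were. With an unadjusted p under 0.05 in edgeR there were 6 and 1, and DESeq2 called 2 and 0. In 13 hosts both FLI1 KO libraries lay above WT and in 4 both lay below, where 42.3% and 39.4% of all genes with 200 counts did. Their median log2 fold change was 0.41 (range -0.56 to 1.84), against 0.07 over all members, and their summed level was 1008 and 1011 CPM in the FLI1 KO libraries against 793 CPM in WT. DANCR (chromosome 4, 52712325 to 52723623, antisense to ERVMER34-1, which had at most 1 count in a library) had 1509 and 1075 counts in the FLI1 KO libraries against 346 in WT (log2 fold change 1.84 ± 0.24 SE, adjusted p = 0.000928). SNHG4 followed with 854 and 830 against 404 (log2 fold change 1.00 ± 0.20 SE, adjusted p = 0.0126), just under the 2-fold threshold. Of the hosts not called, SNHG29 and SNHG16 overlap a protein-coding gene on the opposite strand and SNHG1 starts beside SLC3A2. SNHG29 had 7123 and 6847 counts against 4823 (adjusted p = 0.131), SNHG16 had 3050 and 2468 against 2046 (adjusted p = 0.291), and SNHG1 had 1924 and 1815 against 1809. The change of SNHG1 lay within its standard error. GAS5 and CYTOR are on the list of snoRNA host genes but have no snoRNA counted within them here, so they are not among the 20. Over the 19 members on that list 1 was called higher and 0 lower by edgeR (6 and 0 at an unadjusted p under 0.05, and DESeq2 called 2 and 0), with a median log2 fold change of 0.45. GAS5 had 3053 and 2923 counts in the FLI1 KO libraries against 2656 in WT (log2 fold change 0.11 ± 0.17 SE).

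**Figure D3:**
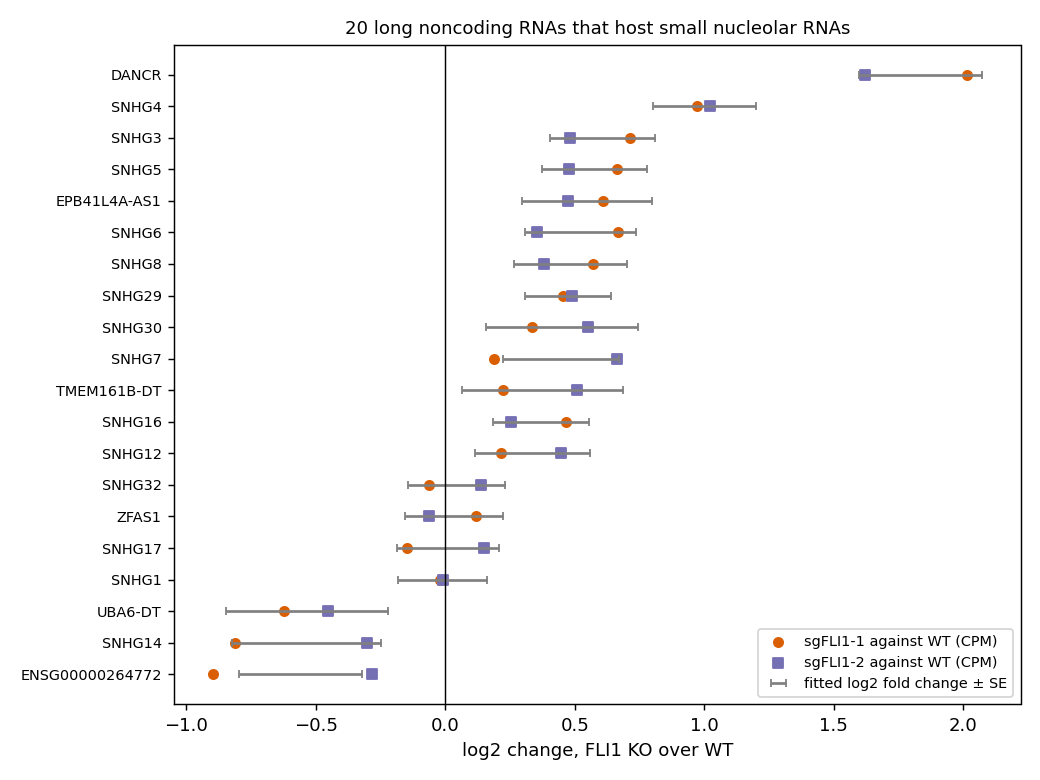
Log2 change of FLI1 KO over WT for the 20 members that host snoRNAs; bars show the fitted log2 fold change ± SE, circles the library labelled sgFLI1-1 and squares the library labelled sgFLI1-2, both against WT by CPM. DANCR and SNHG4 lie farthest to the right, SNHG1, SNHG17, ZFAS1 and SNHG32 lie around 0, and UBA6-DT, SNHG14 and ENSG00000264772 lie to the left.

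Among RNAs of nuclear bodies and splicing, 0 of 5 members were called by edgeR in either direction (1 lower and 2 higher at an unadjusted p under 0.05; DESeq2 called 0 and 1). Over all genes with 200 counts, 3.6% were called lower and 2.23% higher, so a set this small could well hold no call. NEAT1, the scaffold of paraspeckles, had 1962 and 2230 counts in the FLI1 KO libraries against 2852 in WT (log2 fold change -0.50 ± 0.18 SE, adjusted p = 0.145). MALAT1, an abundant RNA of nuclear speckles, had 1259 and 1744 against 1317, with WT between the FLI1 KO libraries, and NORAD, a cytoplasmic RNA that binds Pumilio proteins, had 4372 and 4393 against 4747. OIP5-AS1, antisense to OIP5, had 1547 and 1269 counts against 959 (adjusted p = 0.17). It also overlaps the protein-coding gene ENSG00000285920 on the same strand, which went the opposite way. That gene had 149 and 0 counts in the FLI1 KO libraries against 645 in WT and was not called (adjusted p = 0.11). The part of reads shared with it in the change of OIP5-AS1 was not tested.

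On the list of interferon and antigen presentation neighbours, 9 of 46 symbols were members, and 2 were called lower, HCP5 and PSMB8-AS1, and 1 higher. Over all genes with 200 counts, 3.6% were called lower and 2.23% higher. In 8 of the 9 both FLI1 KO libraries lay below WT, as did 39.4% of all genes with 200 counts, and the median log2 fold change was -0.50. The list was drawn up with earlier results of these libraries known, so its direction is not independent evidence. LUCAT1, an RNA induced by interferon and by oxidative stress that lies antisense to ADGRV1, had 341 and 545 counts in the FLI1 KO libraries against 764 in WT and was not called (log2 fold change -0.84 ± 0.27 SE, adjusted p = 0.104). HCG18, from the same MHC region as HCP5 and antisense to TRIM39, had 1121 and 1147 against 1171.

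On the list of hypoxia, p53, NRF2 and stress linked RNAs, 0 of 8 members were called by edgeR or by DESeq2 (2 lower and 1 higher at an unadjusted p under 0.05). Of 19 members on the list of carcinoma and squamous epithelium RNAs, LINC00511 was called lower and UCA1 higher, and the median log2 fold change was 0.00. Beside both lists, 3.6% of all genes with 200 counts were called lower and 2.23% higher. CASC19 had 2201 and 2758 counts in the FLI1 KO libraries against 3669 in WT (log2 fold change -0.62 ± 0.20 SE, adjusted p = 0.0971). DLEU1 had 759 and 761 counts against 366 (log2 fold change 0.99 ± 0.20 SE, adjusted p = 0.0146) and so passed the adjusted p without reaching 2-fold. GATA2-AS1, H19 and SNHG4 did the same, and these 4 were the only members of this kind, all higher in FLI1 KO.

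Members and the protein-coding genes they overlap moved together only loosely. Over 68 pairs on opposite strands with at least 200 counts in the coding gene, Pearson's r of the log2 fold changes was 0.41 and Spearman's rho 0.27. Over 39 pairs on the same strand they were 0.35 and 0.14, and over 19 pairs with divergent starts 0.57 and 0.24. These are descriptions across genes of the same 3 libraries. Overlapping pairs may share reads, which was not tested, while the divergent pairs do not overlap by the deposited coordinates. Of 39 members with the hyphenated suffix -AS, with or without a number, 5 were called lower and 1 higher. This compares with 14 and 19 of all 184 members, and with 3.6% and 2.23% of all genes with 200 counts. Of 10 members named as divergent transcripts (DT), 0 were called by edgeR or DESeq2 (0 lower and 1 higher at an unadjusted p under 0.05), with log2 fold changes between -0.53 and 0.78.

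**Figure D4:**
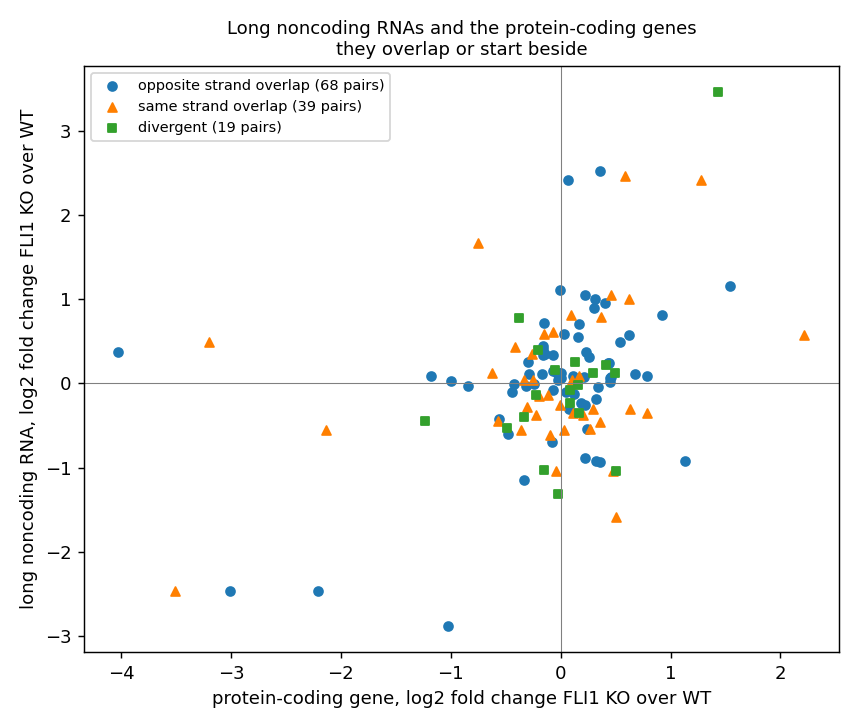
Log2 fold change of FLI1 KO over WT of each lncRNA (vertical axis) against that of the protein-coding gene it overlaps or starts beside (horizontal axis), with 1 point per pair. The 3 points at the lower left with a member change of -2.47 are PSMB8-AS1 with PSMB9, TAP1 and PSMB8.

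The FLI1 KO libraries were close to each other for most members, but a few differed by far more than counting error. Between them, 154 members lay within 1.5-fold by CPM. The library labelled sgFLI1-2 was at least 2-fold above the library labelled sgFLI1-1 in 10 members (5.43%, against 0.948% of all genes with 200 counts) and at least 2-fold below in 4 (2.17%, against 0.428%). Of these 14 members, 12 were among the 50 that shared at least 50% of their 31-base words with other genes (24% of the 50), and 2 among the other 134 (1.49%). Several of the 14 belong to 1 family of near-identical genes on chromosome 21, described below. Each copy was counted as a member, so these shares count 1 locus family several times and are larger than they would be by locus. With 1 library per guide no test is possible, so intervals cover counting error only, and the part of shared sequence in these differences was not tested.

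The widest gap was that of ENSG00000259623, with 872 counts in the library labelled sgFLI1-1, 19 in the library labelled sgFLI1-2 and 241 in WT. It lies wholly within exons of KLHL11, a Kelch-family ubiquitin ligase adaptor gene on the same strand of chromosome 17 (41848518 to 41851447), and shared 100% of its 31-base words with it. KLHL11 had the mirror image, with 194 and 830 counts in the FLI1 KO libraries and 386 in WT, so the sum of the pair was 1066 and 849 in the FLI1 KO libraries and 627 in WT. The member held 81.8% and 2.24% of that sum in the FLI1 KO libraries and 38.4% in WT, and the log2 CPM ratio of sgFLI1-2 over sgFLI1-1 was -5.39 (95% exact binomial interval -6.17 to -4.78). ENSG00000263244, wholly within exons of C16orf72 (HAPSTR1 in GENCODE v44), had 308 and 10 counts in the FLI1 KO libraries against 178 in WT. ENSG00000260772, within exons of NFAT5, the tonicity-responsive transcription factor gene, had 23 and 205 counts against 20, and ENSG00000268575, which overlaps the kinase gene CDK11A on the same strand, had 60 and 246 against 164. For these members the overlapping genes were steadier, with 5992 and 5193 counts against 5388 for C16orf72, 2072 and 2084 against 1332 for NFAT5 and 777 and 665 against 748 for CDK11A.

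A set of near-identical genes on the short arm of chromosome 21, the arm that carries ribosomal RNA gene repeats, also parted the FLI1 KO libraries. The 4 copies ENSG00000281181, ENSG00000280800, ENSG00000280614 and ENSG00000281383, each with over 90% of its words shared, summed to 3920 and 8351 counts in the FLI1 KO libraries against 12206 in WT. Of these, ENSG00000281181 had 1188 and 2573 counts in the FLI1 KO libraries against 3774 in WT, and its log2 fold change of -1.05 was not called (adjusted p = 0.108). On the opposite strand ENSG00000280441 had 3170 and 992 counts against 1267, and ENSG00000278996 had 1177 and 391 against 488. The order of the FLI1 KO libraries was thus turned round between the strands, and since the copies share their sequence they are 1 locus family rather than independent members.

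**Figure D5:**
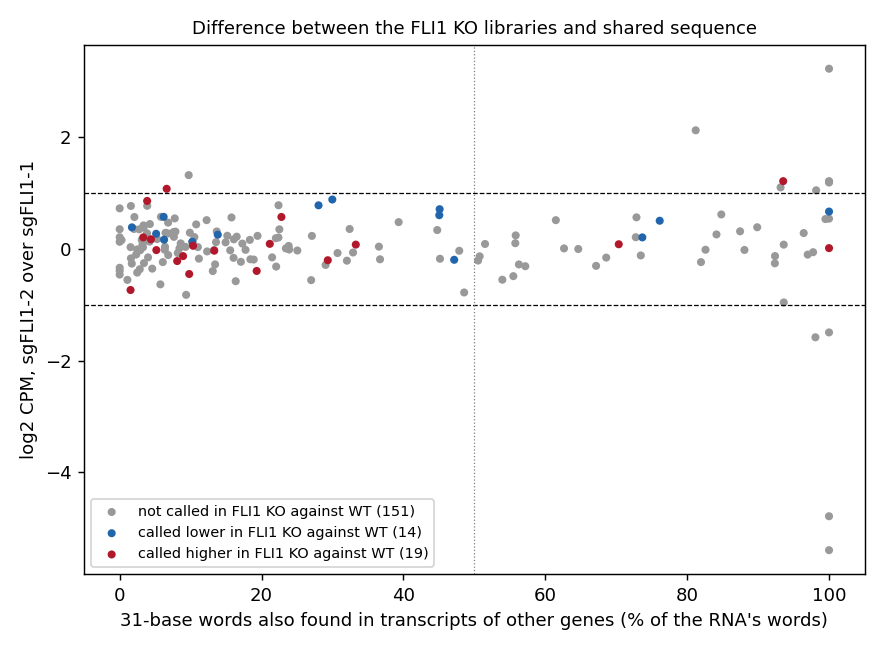
Log2 ratio of CPM in the library labelled sgFLI1-2 over the library labelled sgFLI1-1 (vertical axis; dashed lines mark 2-fold) against the percentage of each member's 31-base words that occur in transcripts of other genes (horizontal axis; dotted line at 50%). The 12 members beyond 2-fold at the right share at least 50% of their words, and 2 lie to the left of the dotted line.

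At the threshold of 200 counts, the members just inside were LINC01138 (145 and 92 counts in the FLI1 KO libraries, 200 in WT), ENSG00000267002 (187 and 200, and 170 in WT) and ENSG00000260196 (201 and 128, and 83 in WT). Just outside lay LINC00857 (142 and 175 counts, and 197 in WT), ENSG00000279738 (196 and 114, and 110 in WT) and ENSG00000273015 (196 and 134, and 77 in WT).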

How the data were processed

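Poly-A RNA-seq libraries of HK1 cells, 2 FLI1 KO and 1 WT, were grouped by the genotype label. The KO columns were matched to sgFLI1-1 and sgFLI1-2 by number only; a swap would leave KO against WT as it is. The submitters' processing notes name fastp (0.23.2), HISAT2 (2.0.4), StringTie (1.3.4d) and GRCh38.p12. Gene counts were deposited as whole numbers with no scaling, and the authors deposited FPKM values, scaled to gene length and library size. The counting tool and use of strand are not given in the sources used here, so reads of overlapping genes cannot be told apart.

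Counts were fitted over the whole table with edgeR (4.0.16, R 4.3.3; glmQLFit, glmQLFTest) after TMM scaling and filterByExpr with a minimum count of 10. This left 15483 genes, all 184 members included. The fit had 1 residual degree of freedom, and WT, with 1 library, took its spread from the KO pair. The prior had 9.56 degrees of freedom, so the spread of each gene came mostly from the trend over other genes. P-values are two-sided and adjusted by Benjamini and Hochberg over the genes tested. CPM ratios used a prior of 0.5 counts.

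Places used the deposited coordinates. Exons, names and 31-base words came from GENCODE v44, which held all 184 members, 163 with the same start and end. Intervals were computed with scipy (1.17.1). Depth was 22172158 to 23904587 counts a library, and intervals cover counting error only.

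The members, lists and tests were chosen with earlier results of these data known. Named are the 12 members called higher and 12 called lower of largest fold change, the 6 of highest FPKM, up to 4 by count and 4 called of each list, the 4 farthest apart between KO libraries, 3 on each side of 200 counts, coding genes overlapping a called member, and FLI1; 1 called member is counted but not reported here, and the remaining called members and genes near one were added after their values were seen. Alternatives tried were an unfiltered fit, at least 50 counts, median-of-ratios scaling, DESeq2 (1.42.0), no fold threshold, leaving out each KO library, other count thresholds, FPKM with a pseudocount of 1 or 0.1, and 1.5-fold and 4-fold limits.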

Additional observations from a re-analysis of the deposited data

How the results depend on the processing

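No named member that was called turned direction under median-of-ratios scaling, DESeq2, no filter, log2(FPKM + 1) or without either KO library. In every called member both KO libraries lay on the same side of WT, so leaving out 1 of them could not turn it. The other settings reuse the same 3 libraries, so the unchanged directions are no further support. On log2(FPKM + 1) 24 of 49 named members moved by more than the spread between the KO libraries. With no filter on low counts, edgeR called 0 members lower (24 at an unadjusted p under 0.05; DESeq2 11) and 2 higher, ENSG00000286966 among them, and the other calls were lost; the cause was not tested. With DESeq2, MYOSLID, SLC9A3-AS1 and ENSG00000261553 lost their calls as lower, and ENSG00000233461 and ENSG00000262160 theirs as higher. Leaving out 1 KO library gave 19 to 25 members at least 2-fold lower than WT and 23 to 26 higher, with no test left; the highest counts were those without the library labelled sgFLI1-2. Among members with at least 500 counts 6 were called lower and 11 higher, without a protein-coding gene body overlap 5 and 10, with 200 counts in all 3 libraries 5 and 7, and with 200 counts in a KO library and in WT, an alternative chosen after seeing the data, 5 and 7; these sets hold fewer members. The size rule gave 9 lower members on log2(FPKM + 1), 30 higher members at 1.5-fold, and 5 lower and 5 higher at 4-fold. Of the 14 members 2-fold apart between the KO libraries, 2 were left among those with under 50% of their 31-base words shared, also chosen after seeing the data. No paired analysis was possible because WT holds 1 library. With 1 WT library, the spread of WT was not measured.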
